A study of Caenorhabditis elegans with 2 samples.

Results

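pkd-2, zip-7, Y57G11C.5 and Y105C5A.15 are 4 protein-coding genes of Caenorhabditis elegans whose introns held the strongest intronic binding summits of ATTF-6 on the right arm of chromosome IV. They were selected on the measured signal itself, so the counts, signals and ranks given for them are descriptions and carry no test. They are 4 of the 463 protein-coding genes lying between 13.5 and 17.25 Mb of chromosome IV, here called the right region, and of 19973 protein-coding genes on all chromosomes. Every summit between 1000 bp upstream of a gene's start and the gene's end was counted, which gave 21 summits out of 798 in the right region and 2134 in the whole list. The 4 strongest intronic summits had deposited signals of 1298 in pkd-2, 1064 in Y57G11C.5, 1019 in Y105C5A.15 and 944.0 in zip-7. The next gene, Y57G11C.22, stood just outside the selection with 584.7.

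The study mapped ATTF-6 by ChIP-seq in a single group of 2 biological replicates. The worms were of strain RW12231, in which the CRISPR insertion st12231[attf-6::TY1::EGFP::3xFLAG] I tags the protein. They had been hatched into starvation after bleaching and were collected whole as young adults at 64 hours. Chromatin was sonicated to fragments of 200 to 800 bp and pulled down through GFP. As whole animals were used, the lists average over all tissues, and no untagged or wild-type group and no input library was analysed here.

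AT-hook proteins carry a short basic motif that inserts into the minor groove of A+T-rich DNA. The right arm of chromosome IV of C. elegans carries dense clusters of tiny piRNA genes, called 21U-RNA genes in this animal, which lie between and inside the introns of protein-coding genes. Their products guide the Argonaute PRG-1 in the germ line. Introns of worm genes also hold other short non-coding genes, such as those for snoRNAs, which guide the modification of other RNAs, and for snRNAs, which form the splicing machinery. Genes for tRNAs are transcribed by RNA polymerase III from promoter elements inside the gene, the A box and the B box.

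DNA under strong summits is shown first. Of the 7 summits with a signal above 500, that at chrIV:14765119 in Y57G11C.5 is not shown. It shares its deposited region with the stronger summit of that gene. Each stretch is a summit base with 75 bases to either side, in the WBcel235 (ce11) genome sequence from RefSeq. The genes are those of Ensembl release 115. In the first, chrIV:15234353-15234503 on the plus strand in intron 1 of pkd-2, capitals mark the annotated snoRNA gene Y73F8A.1175. In the second, chrIV:14764813-14764963 on the minus strand in an intron of Y57G11C.5, capitals mark the annotated snRNA gene Y57G11C.35. The remaining capitals mark matches to an A box (TGGNNNAGTNG, N being any base) and a B box (GGNTCNANNCC), in chrIV:15235351-15235501 on the plus strand upstream of pkd-2, chrIV:16503710-16503860 on the minus strand in zip-7, and chrIV:15693386-15693536 on the plus strand in Y105C5A.15. The last stretch, chrIV:15703763-15703913 on the plus strand in Y105C5A.15, holds neither a short RNA gene nor such a pair and has no capitals; it is shown because close copies of it are spread over the genome.
pkd-2 intron 1: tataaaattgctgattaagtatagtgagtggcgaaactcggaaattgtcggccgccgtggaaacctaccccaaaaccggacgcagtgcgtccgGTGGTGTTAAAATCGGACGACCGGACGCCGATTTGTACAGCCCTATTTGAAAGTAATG
Y57G11C.5 snRNA: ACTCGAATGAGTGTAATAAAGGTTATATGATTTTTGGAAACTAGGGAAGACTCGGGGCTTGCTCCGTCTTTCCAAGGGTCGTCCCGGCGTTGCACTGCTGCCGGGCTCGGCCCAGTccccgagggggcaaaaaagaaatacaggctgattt
pkd-2 upstream tRNA: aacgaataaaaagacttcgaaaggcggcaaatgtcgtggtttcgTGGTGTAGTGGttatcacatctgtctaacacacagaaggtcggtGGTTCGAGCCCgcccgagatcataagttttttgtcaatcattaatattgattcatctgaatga
zip-7 intron: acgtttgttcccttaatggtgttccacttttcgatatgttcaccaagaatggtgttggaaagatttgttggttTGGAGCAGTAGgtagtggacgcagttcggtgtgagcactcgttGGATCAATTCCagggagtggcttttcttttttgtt
Y105C5A.15 intron 1: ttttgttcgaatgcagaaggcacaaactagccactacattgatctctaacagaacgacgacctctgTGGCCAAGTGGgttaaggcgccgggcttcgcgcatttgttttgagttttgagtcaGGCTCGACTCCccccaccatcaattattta
Y105C5A.15 downstream intron: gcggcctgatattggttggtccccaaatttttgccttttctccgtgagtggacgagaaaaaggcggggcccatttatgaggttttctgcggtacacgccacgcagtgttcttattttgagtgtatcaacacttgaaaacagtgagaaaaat

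The data are lists of bound regions, each with a summit and a signal as the authors deposited them. Read counts per library were not among the values used here, which leaves depth unknown and allows no counting interval. The joint conservative list, used throughout unless another is named, held 2134 summits with a median signal of 80.78, and the replicates' own thresholded lists held 1219 regions in replicate 1 and 1110 in replicate 2. Replicate signals below come from each replicate's own ranked list, which was called separately, so that its values are mostly lower than the joint ones and are not on their scale. In the right region 200 of the 463 genes had a summit in their window, a background of 43.2%, against 6.35% of all protein-coding genes, and 104 genes, or 22.5%, had one in an intron. All 4 genes had both, which is what they were selected for.

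**Figure D1:**
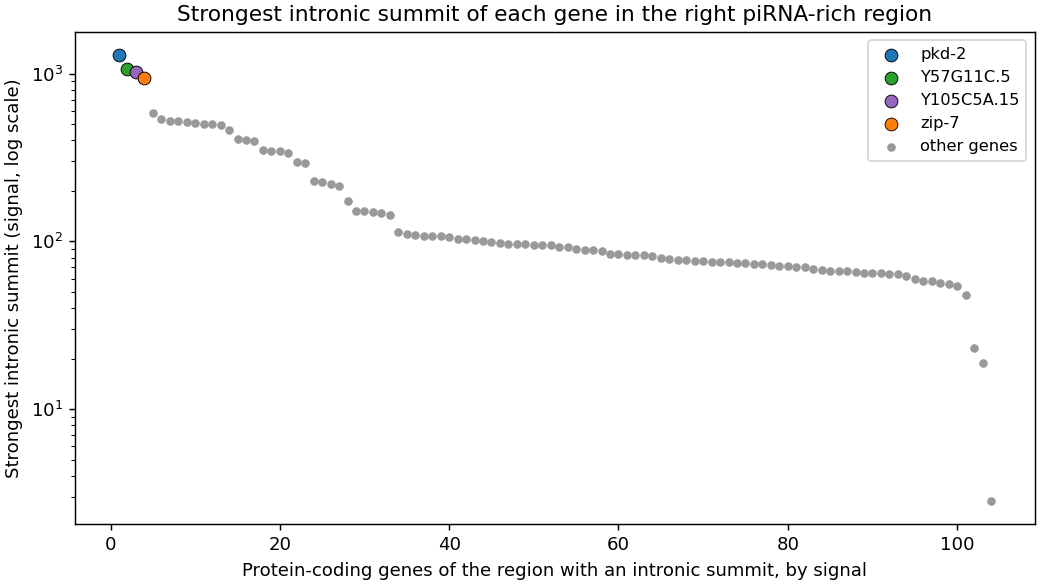
Deposited signal (log scale) of the strongest intronic summit in each of the 104 protein-coding genes of the right region that have one, in order of signal. The 4 selected genes (coloured) lie between 944.0 and 1298, and the next gene, Y57G11C.22, lies at 584.7.

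The polycystin gene pkd-2 (WBGene00004035, RefSeq product Polycystin-2, chrIV:15227814-15234993, minus strand) had 2 strong summits on either side of its start. Its protein is a cation channel subunit of the TRP family that works with LOV-1 in the cilia of male sensory neurons. The intronic summit at chrIV:15234428 had a signal of 1298 and ranked 6th of 2134 in the list and 3rd in the right region. It lay in intron 1, which is 1481 bp long, 565 bp downstream of the gene start and 278 bp from the nearest exon. Its signal was 738.2 in replicate 1 and 564.0 in replicate 2, rank 8 in each replicate's own ranked list, with a ratio of replicate 1 to replicate 2 of 1.31. The replicates placed the same summit within 1 bp of the joint position.

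This summit sat 18 bp upstream of the start of the snoRNA gene Y73F8A.1175 (WBGene00220205, chrIV:15234446-15234620), a 175 bp gene in the intron on the strand opposite to pkd-2. The same position lay 19 bp upstream of the start of the piRNA gene 21ur-1009, also on the opposite strand. The snoRNA start and the piRNA start are therefore about the same place in the annotation, and the signal cannot be assigned to either of them from position alone. The A+T content of the summit with 100 bp to either side was 52.2%, and with 50 bp to either side it was 40.6%.

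The second pkd-2 summit, at chrIV:15235426, had a signal of 785.9 and ranked 14th in the list and 11th in the region. It lay 433 bp upstream of the gene start, inside the tRNA gene Y73F8A.t1 (WBGene00014602, chrIV:15235388-15235460, plus strand, annotated as tRNA-Val), 38 bp from the start of that gene. The A box TGGTGTAGTGG and the B box GGTTCGAGCCC of the tRNA gene, 33 bases apart, are the capitals in the sequence above. The signal was 460.2 in replicate 1 and 320.5 in replicate 2, a ratio of 1.44. The summit also lay in the window of the neighbouring gene lgc-52, whose start is on the other side of the tRNA gene, and it was the only summit of lgc-52. Over the whole of pkd-2 there were 26 annotated piRNA genes, 7 on its own strand and 19 on the other. Of its 2 summits 1 lay inside the gene, which is 0.139 summits per kb of its length, against 0.213 per kb over the right region. The ranked list held 14 regions in the pkd-2 window, of which 12 were below the threshold, the strongest of them with a signal of 40.7.

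The gene Y57G11C.5 (WBGene00013303, chrIV:14761803-14765436, minus strand) is annotated as coding for a protein with a serpin domain, the fold of a large family of protease inhibitors. It had 2 summits, both in the same intron of 450 bp and both within the same deposited region of 871 bp. The stronger, at chrIV:14764888, had a signal of 1064 and ranked 7th in the list and 4th in the region. The weaker, at chrIV:14765119, had a signal of 667.7 and ranked 21st in the list and 17th in the region. The intron is the second of transcript Y57G11C.5a.1 and the first of Y57G11C.5b.1, and the summits lay 144 bp and 76 bp from its nearer end.

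The intron contains the snRNA gene Y57G11C.35 (WBGene00014593, chrIV:14764848-14765034, 187 bp, minus strand), on the same strand as its host. The stronger summit lay inside the snRNA gene, 146 bp downstream of its start and 40 bp from its 3′ end. The weaker lay 85 bp upstream of the snRNA start. An annotated ncRNA gene, Y57G11C.1140, started 63 bp from the stronger summit. In each replicate's own ranked list both summits were matched to the same overlapping region. Its signal was 507.2 in replicate 1 and 508.2 in replicate 2, a ratio of 0.998. The own summits of replicates 1 and 2 lay 196 and 177 bp from the stronger joint summit, and 35 and 54 bp from the weaker one. The separate replicates thus put the summit of that region nearer to the weaker joint position, upstream of the snRNA gene. The joint list put its stronger summit inside that gene.

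The nearest piRNA gene, 21ur-14078, began 394 bp from the stronger Y57G11C.5 summit and 625 bp from the weaker one. The gene held 9 piRNA genes in all. The A+T content around the stronger summit was 53.2% with 100 bp to either side and 37.6% with 50 bp to either side. Around the weaker summit it was 55.7% and 55.4%.

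The bZIP gene zip-7 (WBGene00013100, chrIV:16502910-16505682, minus strand) codes for a protein with the basic leucine zipper domain of transcription factors. It is the shortest of the 4 genes at 2773 bp and had no annotated piRNA gene within it. Its intronic summit, at chrIV:16503785, had a signal of 944.0 and ranked 11th in the list and 8th in the region. The signal was 469.8 in replicate 1 and 475.6 in replicate 2, a ratio of 0.988. The summit lay in a 539 bp intron, 195 bp from the nearest exon, 1897 bp downstream of the gene start and 452 bp downstream of the start of the shorter transcript Y51H4A.4b.

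No tRNA, snRNA, snoRNA, rRNA or miRNA gene started near the intronic summit of zip-7. The nearest was cel-mir-1021 at 30604 bp, and the nearest annotated ncRNA gene, Y51H4A.939, began 11213 bp away. The nearest piRNA gene, 21ur-12188, began 1961 bp away. The DNA on the strand of zip-7 nevertheless held an A box match, TGGAGCAGTAG, and a B box match, GGATCAATTCC, 32 bases apart. The second summit of zip-7, at chrIV:16503262 in an exon annotated as UTR, had a signal of 100.1 and ranked 695th in the list. Its signal was 47.56 in replicate 1 and 72.29 in replicate 2, and it overlapped a region of both own thresholded lists.

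The gene Y105C5A.15 (WBGene00013639, chrIV:15689201-15722553, plus strand) is annotated as coding for a protein with a BED-type domain, a DNA-binding zinc finger fold also found in transposases. At 33353 bp it was the longest of the 463 genes, and its 15 summits were the most in any of them. The next, egl-23, eps-8, Y64G10A.7 and Y37A1A.4, had 8 each. Per length the count was less unusual, at 0.39 summits in the gene per kb against 0.721 for zip-7, 0.55 for Y57G11C.5 and 0.213 over the right region. The 15 summits were 12 in introns, 1 in an exon annotated as UTR and 2 upstream of the start, and 2 of them were far stronger than the rest.

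**Figure D2:**
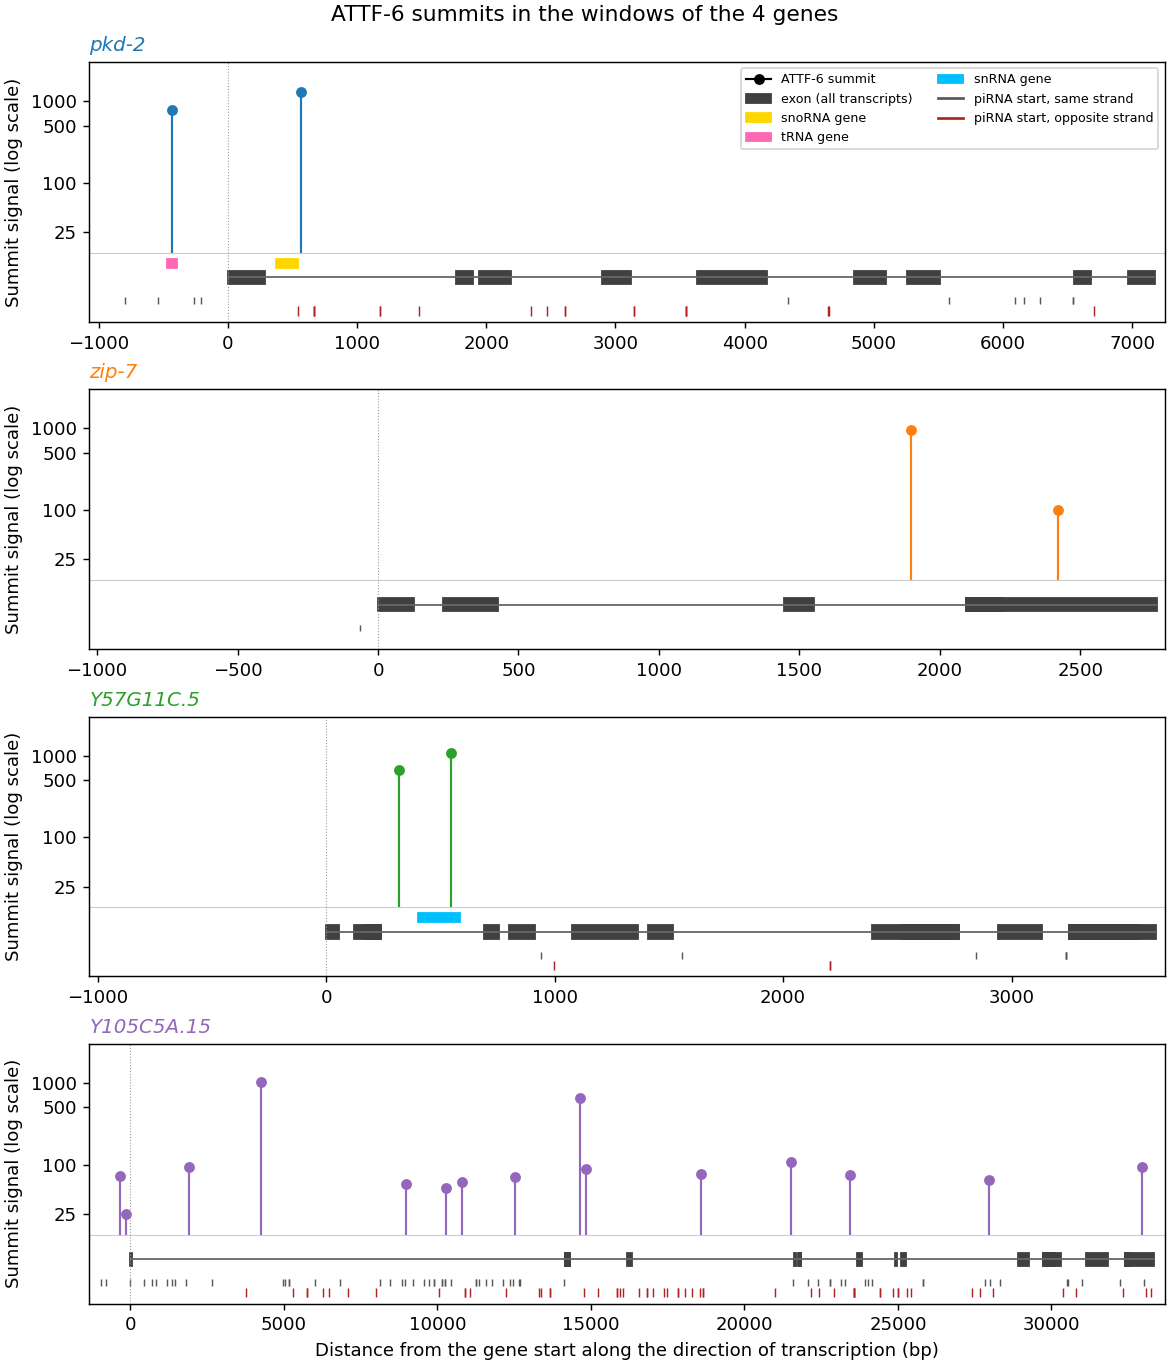
Summits in the windows of the 4 genes, drawn by distance from the gene start in the direction of transcription, with the deposited signal on a log scale. Boxes below each panel's baseline are exons and short RNA genes and ticks are piRNA starts on either strand. The strong summits of pkd-2 and Y57G11C.5 lie at short RNA genes, and in Y105C5A.15 2 strong summits, of 1019 and 647.0, stand among 13 of 107.9 or less.

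The strongest Y105C5A.15 summit, at chrIV:15693461, had a signal of 1019 and ranked 8th in the list and 5th in the region. It lay 4260 bp into the gene, in intron 1 of the long transcripts, which spans 14103 bp, and 4205 bp from the nearest exon. Its signal was 507.5 in replicate 1 and 511.1 in replicate 2, a ratio of 0.993. The nearest short RNA gene, the snoRNA gene Y105C5A.1283, began 44101 bp away, and the nearest piRNA gene, 21ur-10279, began 476 bp away. The stretch around this summit held the A box match TGGCCAAGTGG and the B box match GGCTCGACTCC on the plus strand, 44 bases apart.

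The second strong summit of Y105C5A.15, at chrIV:15703838, had a signal of 647.0 and ranked 25th in the list and 19th in the region. It lay 484 bp downstream of the start of the transcript Y105C5A.15a.1, in a 1877 bp intron, 325 bp from the nearest exon. Its signal was 336.7 in replicate 1 and 282.8 in replicate 2, a ratio of 1.19. A weaker summit of 87.49 at chrIV:15704048 shared its deposited region of 642 bp. The nearest piRNA gene, 21ur-3443, began 126 bp from the strong summit.

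The other 13 summits of Y105C5A.15 had signals from 25.24 to 107.9, and the median over all 15 was 74.28. The highest of them, 107.9 at chrIV:15710715, had 59.35 in replicate 1 and 36.98 in replicate 2. The lowest, 25.24 at chrIV:15689069, lay 132 bp upstream of the gene start. In replicate 1 it and the summit of 73.09 at chrIV:15688856 were matched to the same overlapping region, with a signal of 37.8. The replicate 1 summit of that region lay 218 bp from the lowest summit and 5 bp from the other. Of these 13 summits, 12 lay within 200 bp of a piRNA start, where 65.6% of the other right-region summits below a signal of 500 did so, the exception being the one at chrIV:15688856, which lay 334 bp from 21ur-13151. The gene held 118 piRNA genes, 59 on each strand, and the part of that density in the share near a piRNA start was not tested. In its window the ranked list held 62 regions, of which 47 were below the threshold, the strongest of those with a signal of 68.26. The signal of the strongest region below the threshold was thus above those of several summits in the list.

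The ratio of replicate 1 to replicate 2 ran from 0.563 to 1.65 over the 21 summits with a median of 1.16, and was above 1 at 12. At the strong summits, with the region that both Y57G11C.5 summits share counted once, the median of the 6 ratios was 1.09. They lay between 0.988 in zip-7 and 1.44 upstream of pkd-2, and the intronic pkd-2 summit had 1.31. The median was 1.13 over 773 other summits of the right region, with quartiles of 0.925 and 1.34. All 7 strong summits overlapped a region in both replicates' own thresholded lists, which their high signal largely fixes. Of the 14 weaker summits, 2 did so, 4 overlapped a region in 1 own list and 8 in neither. Among the 777 other summits of the right region 278, or 35.8%, overlapped both, 215 overlapped 1 and 284 overlapped neither. Of those 777, 741 had a signal below 500, and the share among the other strong summits alone is not given here. For Y105C5A.15, 5 of the 15 summits overlapped the list of replicate 1, 5 that of replicate 2 and 3 both, so that most of its summits were called only jointly.

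**Figure D3:**
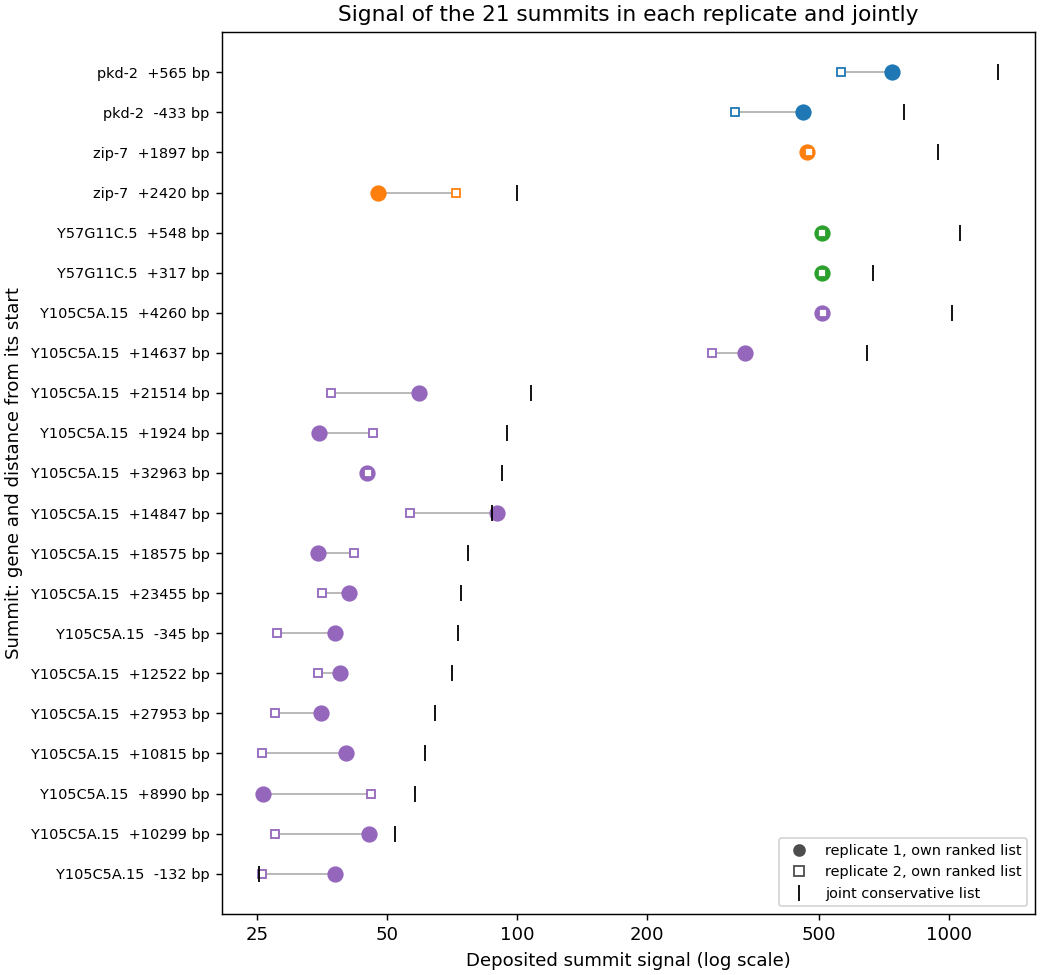
Signal (log scale) of each of the 21 summits in replicate 1 (filled circles), replicate 2 (open squares) and the joint conservative list (black bars), the summits being named by gene and distance from its start. The summits of zip-7, Y57G11C.5 and Y105C5A.15 with joint signals of 944.0 to 1064 have nearly equal replicate signals, and most weaker ones are spread more widely.

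Short RNA genes lay near the strong summits of pkd-2 and Y57G11C.5 and of no other member. Within 500 bp of the start of a tRNA, snRNA, snoRNA, rRNA or miRNA gene there were 4 of the 21 summits, against 49 of the other 777 in the right region (6.31%). All 4 were among the 7 strong ones, a share of 57.1%. It counts both Y57G11C.5 summits, which share the same deposited region and snRNA gene. Among the 36 other summits of the right region with a signal of 500 or more, 16 (44.4%) lay that near to such a gene. A nearby short RNA gene was thus common at strong summits of the region in general. Among all summits over 500 bp from a short RNA start, that of Y105C5A.15 with 1019 was 2nd in signal and that of zip-7 with 944.0 was 3rd, after 1902 at chrIV:14525749.

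The A box and B box search was added after the sequences were seen, and its result is a description of letters in a window. A pair in that order on 1 strand with 10 to 90 bases between the boxes was found, searching both strands of the summit with 100 bp to either side, in 3 of the 21 summits: that at the tRNA gene upstream of pkd-2, and those in zip-7 and Y105C5A.15. All 3 were among the 7 strong summits, and among the 36 other strong summits of the right region 6 (16.7%) held the pair, against 0.675% of the 741 weaker ones. It was found in 11 of all 777 other summits of the region (1.42%), in 76 of all 2134 (3.56%), and in 11 of 18656 adjoining windows of the same length that tile the right region (0.059%). Of the 612 annotated tRNA genes, 164 (26.8%) held the pair with these letters, so the search misses most of them. Among the 1721 summits over 500 bp from a short RNA start, 19 (1.1%) held it. The Y105C5A.15 and zip-7 summits were the strongest of those 19. Their genes were selected for high signal and the search followed sight of their sequences, so that order is largely fixed by choice. The next summit, at chrIV:15729810, had a signal of 642.4. The median signal was 158.4 over the 19, with the Y105C5A.15 and zip-7 summits included, and 77.39 over the others. That difference was not tested. Neither the Y105C5A.15 window nor the zip-7 window is annotated as a tRNA gene in the gene set used here.

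Copies of the same window elsewhere in the genome, at 90% identity or more over at least 100 bp, were found for 3 of the 21 summits (14.3%), against 146 of 777 (18.8%) in the rest of the region. All 3 were strong summits, and 19 of the 36 other strong summits (52.8%) had a copy. The intronic pkd-2 window had 42 copies, 13 of them in the right region. A summit lay within 250 bp of 8 of those 13 and of 1 of the 29 outside the region, and the 10 summits found there included the Y105C5A.15 summit at chrIV:15688856. The strong Y57G11C.5 window had 17 copies, of which 16 overlapped an annotated snRNA gene and 12 had a summit near, none in the right region. The Y105C5A.15 window at chrIV:15703838 had 104 copies, 33 of them in the right region, and 32 of those 33 had a summit within 250 bp, as did 15 of the 71 copies outside the region. The strongest signal at any copy was 522.2 for the pkd-2 window, 477.8 for the Y57G11C.5 window and 676.7 for the Y105C5A.15 window. How reads that fit several places were treated is not given here, and the part of these copies in the signals was not tested.

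The A+T content was lower, by its median, at the strong than at the weak summits of the 4 genes, a difference that was not tested. In the summit with 100 bp to either side the median was 55.7% at the 7 strong summits and 68.4% at the 14 weaker ones. The 7 include both summits of the region shared in Y57G11C.5. Of the 14, 13 were in Y105C5A.15, so a difference by strength cannot be told apart from one between genes. Over the other summits of the right region it was 56.0% at the 36 with a signal of 500 or more and 67.2% at the 741 below. The median of the tiled windows of the region was 69.2%, and that of all 2134 summits was 60.2%. The strong summits of the 4 genes therefore had an A+T content near that of the region's other strong summits and below the median of the region. Among all 21 summits it ran from 52.2% in pkd-2 and at chrIV:15688856 to 76.6% at chrIV:15699500.

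The words AATT and runs of A and T were common in every set. AATT was found in the window of 20 of the 21 summits (95.2%), against 94.6% of the other summits of the right region and 94.8% of the tiled windows. AAATTT was found in 8 (38.1%), against 52.1% and 55.0%, and TATAAA in 3 (14.3%), against 22.3% and 26.5%. A run of at least 6 bases of only A and T stood in all 21, against 98.6% and 97.7%. Of the 8 windows with AAATTT, 7 were weak summits. CTGTTTCA, the core of the motif upstream of piRNA genes, was found at 1 summit, that at chrIV:15717154 in Y105C5A.15 (4.76%), against 18.7% of the other summits of the region and 17.9% of the tiles. All searches read both strands, and AATT is contained in AAATTT.

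The distance to the nearest piRNA start was larger, by its median, at the strong summits, although 3 of the 7 lay within 200 bp of one. The median was 394 bp over the 7 strong summits, both of Y57G11C.5 included, and 70.0 bp over the 14 weaker ones. Of those 14, 13 lay in Y105C5A.15, which holds 118 piRNA genes. A difference by strength therefore cannot be told apart from one between genes. It was 451.0 bp over the 36 other strong summits of the right region and 104 bp over the 741 others. Of the 21 summits, 15 (71.4%) lay within 200 bp of a piRNA start, against 495 of the other 777 (63.7%), and 8 (38.1%) lay 1 to 200 bp downstream of the nearest one, against 44.1% of the other summits. Both zip-7 summits lay 1900 bp or more away, as did 135 of the other 777.

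**Figure D4:**
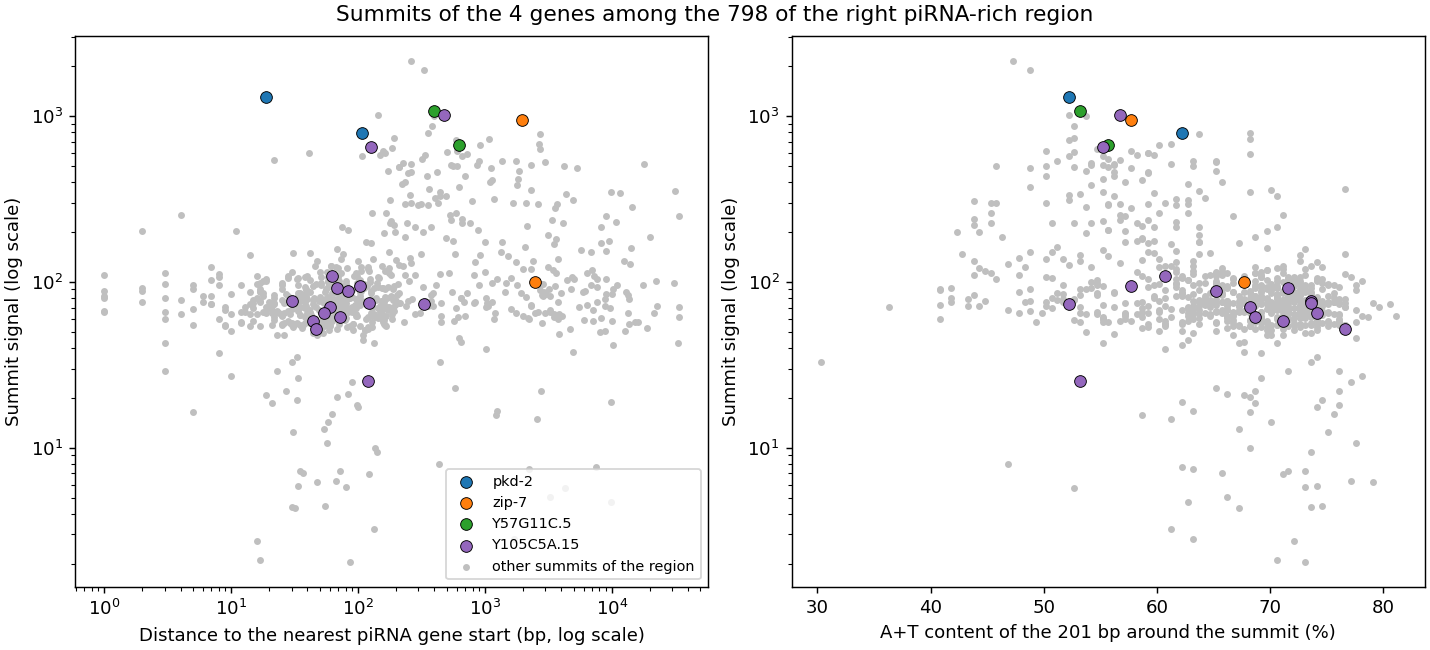
Signal (log scale) of the 798 summits of the right region against the distance to the nearest piRNA start (left, log scale) and the A+T content of the summit with 100 bp to either side (right). The 7 strong summits of the 4 genes (coloured) lie at an A+T content of 52.2% to 62.2%, and most weak Y105C5A.15 summits lie within 200 bp of a piRNA start and at a higher A+T content.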

How the data were processed

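ATTF-6::GFP ChIP-seq of 2 biological replicates of 1 group was analysed from the peak lists the authors deposited, on ce11 per the deposited notes. No source used here names the aligner or the peak caller. The deposited lists give each region a signal per region, a score that grows with reproducibility as the irreproducible discovery rate (IDR) shrinks, and −log10 columns of q values and IDR. The deposited −log10 global IDR stops at an IDR of 0.001%. The joint conservative list was used for counts, and each replicate's own lists for replicate values. The 2 replicate signals of the joint ranked list carry no replicate number and held the same values as the own ranked lists at 21 of 21 summits; 6 further columns per sample in it were not used.

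Computed here, with Python 3.11.15, NumPy 2.4.6 and matplotlib 3.10.9, were summit positions counted from 1 against Ensembl release 115 (a summit was intronic if in no exon of any transcript of the gene), distances to gene starts, motifs, A+T content and copies (BLAST 2.17.0, expectation limit 1e-05). The placement of summits was checked on made-up gene models. A signal of 500 or more was called strong. With 1 group no test was made. Depth is unknown, so precision rests on 2 replicates.

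The members and lists were chosen with earlier results of these data known. By rule, the text names all 4 genes and their summits, short RNA genes within 500 bp, 3 other genes with the strongest intronic summits, the most similar genes, neighbours, and members of polycystin neuron and bZIP lists. The strong class, the A and B boxes, the tiles, the copies and the likeness among the 4 genes were chosen after values were seen. Alternatives were the other joint list, each replicate alone, an IDR of 0.001, other upstream windows, merged summits, another transcript model, and other distance and A+T definitions.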

Additional observations from a re-analysis of the deposited data

How the results depend on the processing

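Of the alternatives to the values above, 83 values stayed at the main value or within its tolerance (for counts, 1.5 times) and 23 did not. Several of the 83 could not have moved, so their number is no measure of stability. The replicate ratios came from lists holding the same values. Each gene's strongest summit lay inside the gene, whatever the upstream window. The strongest signal per gene, read from a single replicate's own list, was 564.0 to 738.2 for pkd-2, 469.8 to 475.6 for zip-7, 507.2 to 508.2 for Y57G11C.5 and 507.5 to 511.1 for Y105C5A.15. Those lists were scaled separately from the joint one. With 1 replicate left out in turn, Y57G11C.5 kept 1 intronic summit and, without replicate 2, 1 summit in all. Y105C5A.15 had 6 summits, all 6 intronic, without either replicate, against 15 and 12 jointly. At a global IDR of 0.001 it had 5 and 4. With no upstream stretch pkd-2 had 1 summit, since the tRNA summit lies upstream, and with 2000 bp upstream Y57G11C.5 had 4. The share of right-region genes with an intronic summit was 14.7% without replicate 1, 15.3% without replicate 2 and 13.0% at an IDR of 0.001, against 22.5%. Measured to the nearest edge, the distance to a short RNA gene was 0 bp for the pkd-2 summit in the tRNA gene and for the stronger Y57G11C.5 summit. No paired analysis was possible because the samples form 1 group. No input library was analysed here, so a region bound in any pull-down cannot be told apart from one bound by ATTF-6.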

Other observations

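Of 13 genes on a hand-made list for the male polycystin neurons, 2 (15.4%) had a summit in their window, against 6.35% of all protein-coding genes. They were klp-6, a kinesin, with an intronic summit of 84.64, and ckb-2, a choline kinase, with one of 78.12, both on chromosome III. No source used here ties ckb-2 to those neurons. Of 24 other bZIP genes found in the annotation, 0 had a summit. Both lists are small beside that background, and none of their members lies in the right region.

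Likeness between genes was the Euclidean distance over the 2 log2 replicate signals of their strongest intronic summits. The 4 selected genes, having been chosen for high signal, were nearest to each other. The distances ran from 0.00825 between Y105C5A.15 and Y57G11C.5 to 0.697 between pkd-2 and zip-7. Between Y105C5A.15 and zip-7 the distance was 0.152, and between pkd-2 and Y105C5A.15 it was 0.559. With the 4 left out, the nearest genes to each were the same 3, Y57G11C.22, Y105C5B.9 and Y41E3.1, which are the next in signal with 584.7, 534.4 and 524.2 in the joint list, as the selection on signal fixes. Their distances were 0.975, 1.15 and 1.17 from zip-7 and 1.60, 1.78 and 1.85 from pkd-2. In replicates 1 and 2 Y57G11C.22 had 317.7 and 274.1, Y105C5B.9 had 291.0 and 252.1, and Y41E3.1 had 249.0 and 286.7. The Y105C5B.9 summit lay 31 bp from the start of the tRNA gene Y105C5B.t4, and that of Y41E3.1 lay 55546 bp from any short RNA start.

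Of the 16 nearest protein-coding neighbours, on either side of the 4 genes, 8 had a summit in their own window, near the background of 43.2% of right-region genes. For lgc-52, among those 8, it was the summit shared with pkd-2. The strongest that was not shared with a selected gene had a signal of 237.1, in mrps-7 beside Y57G11C.5, and vti-1, which lies 196 bp away, had 161.6. The nearest neighbours of zip-7 and Y105C5A.15 had no summit above 97.67.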
